A study of Homo sapiens with 27 samples.

Results

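The genes described here are 10 genes of the Notch and Hedgehog pathways: the Notch ligands JAG1 and JAG2, the receptors NOTCH1, NOTCH2 and NOTCH3, the Notch target genes HES1 and HEY1, and the Hedgehog genes PTCH1, GLI1 and GLI2. They were taken by symbol from a table of 23228 genes, and all 10 were present. The table holds RNA-seq libraries of 3 human prostate cancer sublines, DU145-DR, 22Rv1-DR and ARCaPM-DR, which the labels describe as Ch-CRPC lines and which published work on them describes as docetaxel-resistant derivatives of castration-resistant lines. Each line carried a control short hairpin RNA or 1 of 2 hairpins against the transcription factor GATA2, shGATA2a or shGATA2b. Every line and hairpin had 3 replicate libraries, which gives 9 groups and 27 libraries. All groups therefore carry a hairpin and all lines are of the resistant kind. The chemotherapy-sensitive parental lines are not analysed here. Each group is a single cell line, and the labels do not say whether its replicates were separate cultures, so p-values measure only the spread between these libraries, which may be technical.

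Notch receptors are cleaved when a Jagged or Delta ligand on a neighbouring cell binds them, and the released intracellular part joins the DNA-binding protein RBPJ to switch on target genes such as HES1 and HEY1. In the Hedgehog pathway the receptor PTCH1 holds the membrane protein SMO inactive until a Hedgehog ligand binds. SMO then allows GLI2 to activate transcription, and PTCH1 and GLI1 are themselves direct targets, so their levels are commonly read as a measure of pathway output. Both pathways have been tied to docetaxel resistance of prostate cancer cells.

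The start regions of 8 of the 10 genes were matched to promoter entries of RefSeq (GRCh38.p14), 13 entries in all, since PTCH1 has 5 and GLI2 has 2. HEY1 and GLI1 were not matched. The 250 bases upstream of each start were searched on both strands for GTGGGAA (the RBPJ motif), ACCACCC (the core of the GLI motif) and the GATA motif, spelled AGATAA or AGATAG in its first form and TGATAA or TGATAG in its second. HES1 is shown because it held the one RBPJ match, 85 to 79 bases upstream of the start on the gene's own strand (chr3:194135898-194136147). PTCH1 is shown by the fourth of its entries, which held the one GLI match, on the opposite strand 171 to 165 bases upstream (chr9:95509267-95509516, minus strand). JAG1 is shown because it is the ligand that the knockdown results below turn on, and its window (chr20:10674000-10674249, minus strand) held none of the motifs. Matches are in capitals, and each sequence is read 5′ to 3′ along its gene.
HES1: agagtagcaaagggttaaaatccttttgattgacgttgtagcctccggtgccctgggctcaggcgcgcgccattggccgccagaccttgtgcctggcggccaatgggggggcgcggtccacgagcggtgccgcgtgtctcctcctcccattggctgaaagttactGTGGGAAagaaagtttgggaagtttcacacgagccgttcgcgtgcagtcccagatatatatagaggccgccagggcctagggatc
PTCH1: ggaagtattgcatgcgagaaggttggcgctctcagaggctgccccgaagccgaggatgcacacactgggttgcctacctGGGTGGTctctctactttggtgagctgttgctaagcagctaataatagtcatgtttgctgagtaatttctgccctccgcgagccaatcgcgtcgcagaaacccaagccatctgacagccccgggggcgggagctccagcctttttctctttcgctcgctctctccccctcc
JAG1: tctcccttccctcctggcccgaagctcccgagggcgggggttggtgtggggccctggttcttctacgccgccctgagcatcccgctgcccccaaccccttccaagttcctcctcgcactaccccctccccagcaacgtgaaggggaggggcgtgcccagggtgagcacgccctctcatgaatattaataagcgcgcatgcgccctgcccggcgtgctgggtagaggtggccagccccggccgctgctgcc
Of 35116 promoter windows of the same length, 5.43% held the RBPJ motif, 4.15% the GLI core and 22.33% at least 1 of the GATA motifs. Among the 13 entries, 1 held a GATA match, AGATAG on the opposite strand 178 to 173 bases upstream of the third PTCH1 start, and 10 held no match of any kind. These are matches of letters in a window and were not tested as binding sites.

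Values below are the authors' normalised read counts, which are read counts divided by 1 scale factor per library. Library depth was 3.44 M to 19.4 M reads with a median of 12.87 M, and the shallowest library was ARCaPM-DR shGATA2a replicate 3. Control replicate 3 of 22Rv1-DR stood apart, with a chi-square per degree of freedom of 94.1 and 98.0 against the other replicates of its group, where the other 25 replicate pairs had 6.1 to 45.5. GATA2 itself fell in each line, with log2 changes of -1.85 in DU145-DR (SE 0.15, adjusted p = 5.54e-05), -1.71 in 22Rv1-DR (SE 0.24, adjusted p = 0.0256) and -2.56 in ARCaPM-DR (SE 0.22, adjusted p = 8.78e-05), with all hairpin libraries below the controls of their line. In 22Rv1-DR its fall was not called with shGATA2a alone (-1.79, adjusted p = 0.075) or shGATA2b alone (-1.62, adjusted p = 0.0863). Androgen-response and luminal prostate markers averaged at least 10 in the controls for 6 of 6 genes in 22Rv1-DR but for 1 of 6 in DU145-DR and 1 of 6 in ARCaPM-DR, where KLK3 was at 0 in every library. The summed level of 3 endothelial and of 3 blood markers did not exceed 9.24 in any library. At least 3 of 4 epithelial and 3 of 4 mesenchymal markers averaged 10 or more in the controls of each line, and the summed mesenchymal level was 13563 to 14683 in the DU145-DR controls and 14651 to 17788 with the GATA2 hairpins, 42041 to 58501 and 34899 to 50754 in ARCaPM-DR, and 3917 to 5341 and 3016 to 4177 in 22Rv1-DR. In 22Rv1-DR the androgen-response genes KLK2, KLK3 and TMPRSS2 lay lower in all 6 hairpin libraries than in the 3 controls, and the summed luminal level overlapped between arms in each line. The part of these marker levels in the results below was not tested. In these bulk libraries fewer cells with a transcript and less transcript per cell cannot be told apart. Each of the 10 genes had reads in all 27 libraries, from 3 reads in the lowest library for GLI2 to 6500 in the highest for NOTCH2. The values are not scaled by gene length, so levels are compared between samples and never between genes.

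The first comparison was of the control libraries of the 3 lines, which asks where each gene stands before GATA2 is lowered. ARCaPM-DR controls held the most JAG1, NOTCH1, PTCH1, GLI1 and GLI2, and the least HES1 and HEY1. 22Rv1-DR controls held the most HES1 and the least JAG1, NOTCH2 and GLI2. A model fitted to all 27 libraries (limma on log2 of the normalised count plus 1, Benjamini-Hochberg adjustment over all genes, threshold 0.05) called 7 of the 10 genes between 22Rv1-DR and DU145-DR, where 70.5% of all genes were called. It called 8 between ARCaPM-DR and DU145-DR against 59.9% of all genes, and 9 between ARCaPM-DR and 22Rv1-DR against 70.3%. The counts of members are thus near the share of all genes that differ between these lines, and the sizes of the differences are what is described next.

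Among the ligands, JAG1 read 61.3, 53.5 and 69.2 in the DU145-DR controls, 7.74, 19.8 and 24.5 in the 22Rv1-DR controls, and 529, 393 and 635 in the ARCaPM-DR controls. The 3 lines did not overlap. JAG1 was 3.04 log2 units higher in ARCaPM-DR than in DU145-DR (SE 0.38, adjusted p = 2.18e-07) and 4.93 higher than in 22Rv1-DR (adjusted p = 2.11e-11), and 22Rv1-DR lay below DU145-DR (a log2 difference of -1.89, adjusted p = 0.000111). JAG2, the second Jagged ligand, averaged 454 ± 53.8 in DU145-DR, 1995 ± 408 in ARCaPM-DR and 1653 ± 609.9 in 22Rv1-DR (SD, n = 3 each). DU145-DR stood apart from both other lines (log2 differences of 1.81 for 22Rv1-DR and 2.12 for ARCaPM-DR), while 22Rv1-DR and ARCaPM-DR did not differ beyond their spread (0.31, adjusted p = 0.298). Without 22Rv1-DR control replicate 3, which read 2357 against 1289 and 1312 in the other replicates, that difference was 0.60 (adjusted p = 0.0529).

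Of the receptors, NOTCH1 was higher in each line in turn from DU145-DR (543 ± 77.8) to 22Rv1-DR (868 ± 73.3) to ARCaPM-DR (1526 ± 322), and each step passed the test, the first by 0.68 log2 units (adjusted p = 0.0183) and the second by 0.80 (adjusted p = 0.00673). The first step was lost without DU145-DR control replicate 1 (adjusted p = 0.0791) or without 22Rv1-DR control replicate 3 (0.0555). NOTCH2 averaged 4321 ± 299.6 in DU145-DR, 3458 ± 556 in ARCaPM-DR and 923 ± 304 in 22Rv1-DR. It was lower in 22Rv1-DR than in DU145-DR (a log2 difference of -2.27, adjusted p = 9.87e-11), and DU145-DR and ARCaPM-DR did not differ beyond their spread (-0.33, adjusted p = 0.137). NOTCH2 shares sequence with its partial copy NOTCH2NL, which ranged from 280.7 to 1022 over the libraries, and the assignment of shared reads was not stated. NOTCH3 stood at 1906 ± 63.3 in DU145-DR, 1377 ± 173 in ARCaPM-DR and 2084 ± 726 in 22Rv1-DR. Its one call, ARCaPM-DR below 22Rv1-DR (-0.55, adjusted p = 0.0474), rested on 22Rv1-DR control replicate 3, which read 2909.6 against 1545 and 1798 in the other replicates, and without it the difference was -0.28 (adjusted p = 0.316). It was also lost without ARCaPM-DR control replicate 1 (0.106) or 3 (0.128), and 11 further leave-outs gave adjusted p from 0.0507 to 0.0535.

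HES1 and HEY1, the Notch target genes among the members, were both lowest in ARCaPM-DR. HES1, a repressor of transcription, read 505, 556 and 425 in the 22Rv1-DR controls, 87.4, 80.6 and 73.5 in DU145-DR, and 37.0, 44.7 and 36.5 in ARCaPM-DR, with no overlap between lines. It was lower in ARCaPM-DR than in 22Rv1-DR (a log2 difference of -3.62, SE 0.24, adjusted p = 1.21e-12). HEY1, a related repressor, averaged 109 ± 34.1 in DU145-DR and 71.7 ± 34.5 in 22Rv1-DR, which did not differ beyond their spread (-0.67, adjusted p = 0.182, or 0.0224 with replicate number as a block in the model), and 18.4 ± 9.07 in ARCaPM-DR, which lay below DU145-DR (a log2 difference of -2.57, adjusted p = 2.14e-05). NRARP, another gene that Notch switches on, averaged 82.4 ± 21.2 in DU145-DR, 532 ± 114 in ARCaPM-DR and 206 ± 29.0 in 22Rv1-DR. Of 8 listed Notch targets outside the members, 6 were tested. In ARCaPM-DR controls 5 of them were called higher and 0 lower than in DU145-DR, where 59.9% of all genes were called. Against 22Rv1-DR, 4 were higher and 2 lower, where 70.3% were called.

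The Hedgehog genes were all highest in ARCaPM-DR. PTCH1 averaged 1237 ± 123 there, 550.3 ± 25.6 in DU145-DR and 367 ± 49.3 in 22Rv1-DR, and all 3 differences were called (1.16, 1.75 and -0.59 log2 units). GLI1, a transcriptional activator, read 75.4, 102 and 152 in the ARCaPM-DR controls against 24.2 to 29.2 in DU145-DR and 14.6 to 22.0 in 22Rv1-DR. The last 2 lines did not differ beyond their spread (-0.62, adjusted p = 0.0732), but did without 22Rv1-DR control replicate 3 (-0.80, adjusted p = 0.0363). GLI2 had the widest range of the 10 genes, from 4.89, 6.02 and 6.94 in 22Rv1-DR through 200.3, 235 and 275 in DU145-DR to 947, 967 and 1269 in ARCaPM-DR. The step from 22Rv1-DR to ARCaPM-DR was 7.25 log2 units (SE 0.29, adjusted p = 7.78e-17). Low values in 22Rv1-DR extended to SMO, the signal transducer, at 2.71 ± 1.15 against 467 ± 56.6 in DU145-DR and 846 ± 70.3 in ARCaPM-DR, and to GLI3, the main repressor of the family, at 2.20 ± 2.53 against 356 ± 50.2 and 1145 ± 571. The 3 control libraries of 22Rv1-DR together held 9 reads of SMO and 7 of GLI3. PTCH1, in contrast, was measured at 327 to 422 in those same libraries.

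**Figure D1:**
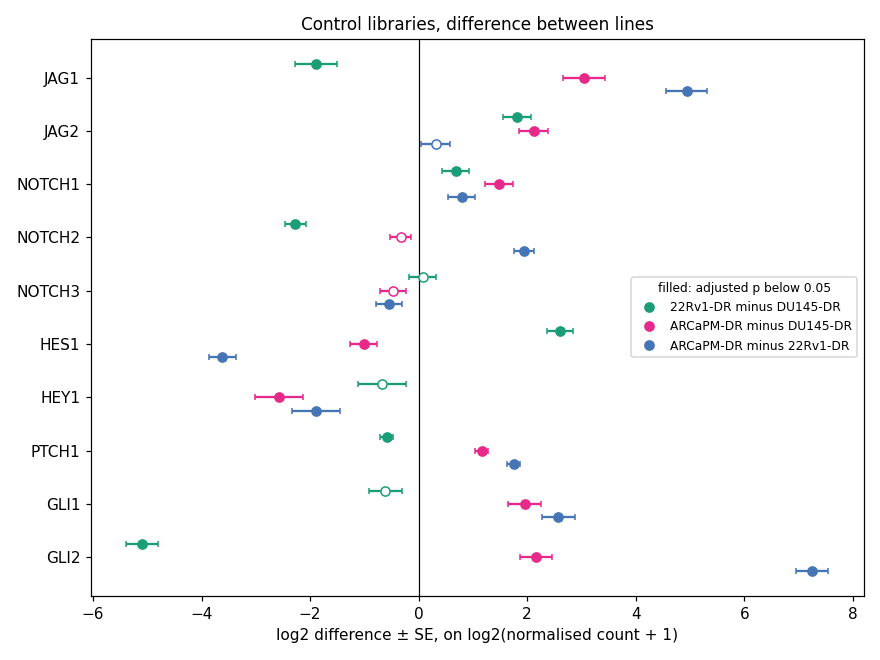
Difference between the control libraries of 2 lines for each of the 10 genes, in log2 units on the horizontal axis, with SE bars from the fit of 27 libraries; filled points have an adjusted p below 0.05. The GLI2 points reach from -5.09 (22Rv1-DR minus DU145-DR) to 7.25 (ARCaPM-DR minus 22Rv1-DR), and the 3 NOTCH3 points stay between -0.55 and 0.07.

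The second comparison set the libraries with a GATA2 hairpin against the control libraries of the same line. JAG1 rose in DU145-DR and in ARCaPM-DR. In DU145-DR HEY1 and PTCH1 fell, and in ARCaPM-DR GLI1 rose and NOTCH3 fell. No member was called in 22Rv1-DR. In DU145-DR this makes 3 of 10 genes called, 1 up and 2 down, where 16.7% of all genes were called (8.72% up, 7.98% down), and in ARCaPM-DR 3 of 10, 2 up and 1 down, against 18.5% (9.86% up, 8.62% down). In 22Rv1-DR, 9 genes were tested, since GLI2 was below the filter, and 0 were called against 0.400% of all genes. There, limma gave 0 members with an unadjusted p under 0.05, and edgeR and DESeq2 on the recovered reads also called 0. With shGATA2a alone limma called 3 of 10 in DU145-DR (16.1% of all genes), 0 of 9 in 22Rv1-DR (0.00%) and 1 of 10 in ARCaPM-DR (12.8%). With shGATA2b alone it called 1 of 10 in DU145-DR (5.81%), 0 of 9 in 22Rv1-DR (0.00727%) and 3 of 10 in ARCaPM-DR (14.5%), and no 22Rv1-DR gene among them had an unadjusted p under 0.05. The same single-hairpin tests in 22Rv1-DR did not call GATA2 itself. All these fits were without replicate number as a block. With it, 4 members were called in DU145-DR beside 5184 of 13362 genes, and 6 in ARCaPM-DR beside 5885 of 13079. In 22Rv1-DR the blocked fit called 0 members beside 166 of 13757 genes. The median change of the members was -0.12 in DU145-DR, -0.25 in ARCaPM-DR and 0.05 in 22Rv1-DR (-0.03 there with no filter and -0.12 with a filter of 50), and that of all genes was between -0.02 and 0.00 in each line.

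**Figure D2:**
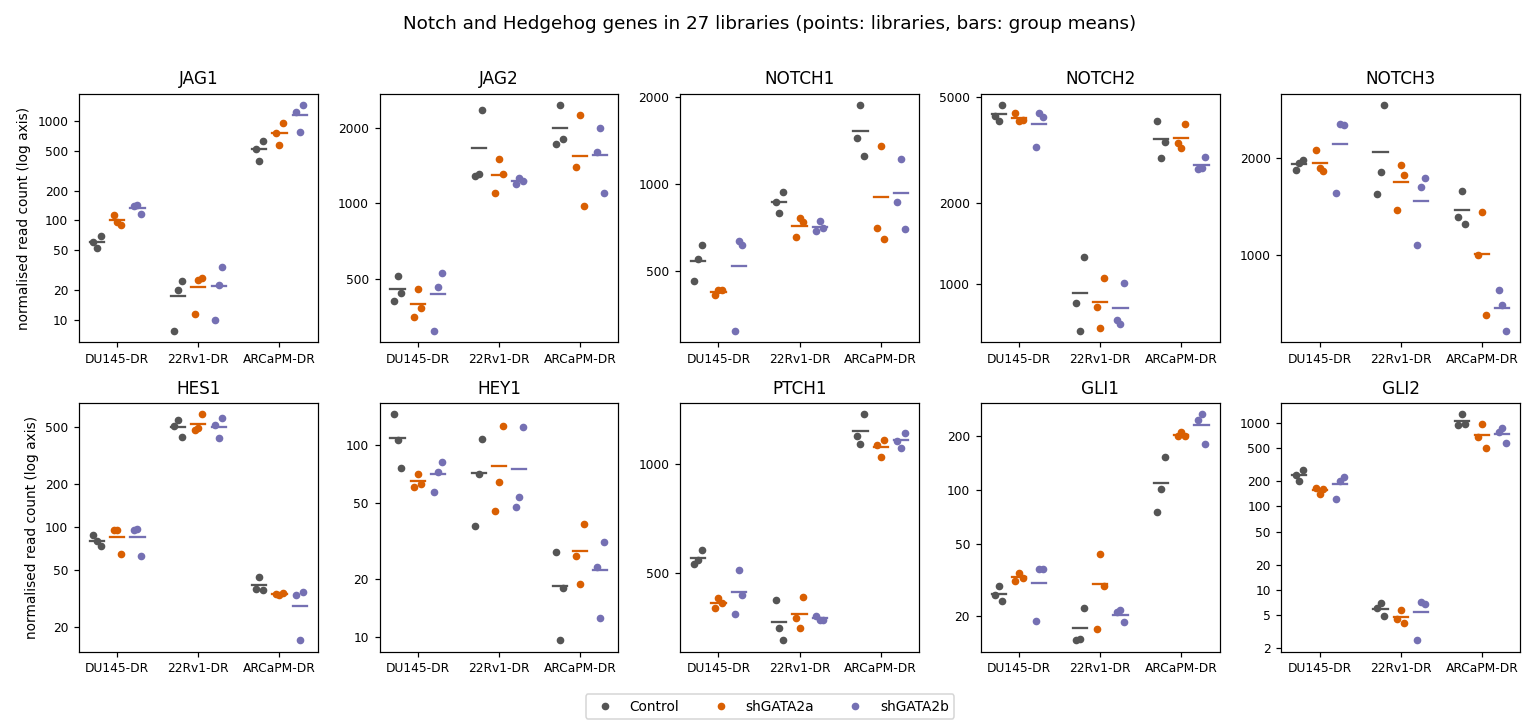
Normalised read count of each gene (vertical axes, log scale, different range in each panel) in the 27 libraries by line and hairpin; points are libraries and bars are means of 3. All 6 GATA2 hairpin libraries lie above the 3 controls for JAG1 in DU145-DR and GLI1 in ARCaPM-DR, and below them for PTCH1 in DU145-DR, while the GLI2 values of 22Rv1-DR stay between 2.50 and 7.21 in all arms.

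JAG1 in DU145-DR read 61.3, 53.5 and 69.2 with the control hairpin, 113, 96.5 and 91.0 with shGATA2a, and 140.4, 142 and 116 with shGATA2b. The hairpin libraries were all above the controls, and the values of shGATA2b were all above those of shGATA2a. The change was 0.90 log2 units (SE 0.14, adjusted p = 0.00186), and each hairpin was called alone, shGATA2a at 0.70 (adjusted p = 0.0136) and shGATA2b at 1.11 (adjusted p = 0.00338). The call of both hairpins together held without each library in turn (adjusted p 0.00247 to 0.016), while that of shGATA2a alone was lost without its own replicate 1 (0.0615) or without control replicate 2 (0.0644). The joint call was lost in a fit of all 27 libraries together (adjusted p = 0.14), which gives DU145-DR the spread of all lines. That fit also lost the calls of shGATA2a alone (0.378) and shGATA2b alone (0.209).

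In ARCaPM-DR, JAG1 read 529, 393 and 635 in the controls, 759.6, 568 and 948 with shGATA2a, and 1224, 777 and 1449.8 with shGATA2b. Control replicate 3 lay above shGATA2a replicate 2, so the groups overlapped, and replicate 2 was the lowest of its arm in all 3 arms. Within each replicate number, shGATA2a lay above the control and shGATA2b above shGATA2a. The change was 0.84 log2 units (SE 0.23, adjusted p = 0.0342), with 1.13 for shGATA2b (adjusted p = 0.0214) and 0.54 for shGATA2a, which was not called (adjusted p = 0.215). The joint call was lost without control replicate 1 (0.103) or 2 (0.137), shGATA2a replicate 1 (0.0744) or 3 (0.0521), or shGATA2b replicate 1 (0.0773) or 3 (0.0619), and in the fit of 27 libraries (0.0825). That of shGATA2b alone was lost without control replicate 1 (0.067) or 2 (0.0721) or its own replicate 1 (0.0871) or 3 (0.0773). With replicate number as a block in the model, both hairpins together (adjusted p = 5.21e-07), shGATA2a (0.00035) and shGATA2b (1.03e-07) were all called. Whether the numbers pair all libraries of this line depended on the gene filter. In 22Rv1-DR the 3 controls (7.74, 19.8, 24.5) and 6 hairpin libraries (10.01 to 33.8, median 24.01) overlapped and the difference was 0.32 (SE 0.45, adjusted p = 0.803). Each hairpin library there lay above the control of its own replicate number. With that number as a block the SE was 0.20, and the difference was still not called (adjusted p = 0.365). JAG2 was called in no line without the block, with a log2 difference of -0.15 in DU145-DR, -0.41 in ARCaPM-DR and -0.33 in 22Rv1-DR and adjusted p from 0.312 to 0.557. With the block it was called in ARCaPM-DR (adjusted p = 0.00445). Without 22Rv1-DR control replicate 3 the JAG2 difference in that line was -0.05 (adjusted p = 0.94).

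Of the receptors, NOTCH3 was called in ARCaPM-DR. It read 1310.2, 1574 and 1246 in the controls, 999.7, 1359 and 649 with shGATA2a, and 779, 701 and 581 with shGATA2b. All shGATA2b libraries lay below all controls, and shGATA2a replicate 2 lay among the controls. The change was -0.76 log2 units (SE 0.21, adjusted p = 0.0313), with -1.01 for shGATA2b (adjusted p = 0.0212) and -0.51 for shGATA2a (adjusted p = 0.189). The joint call was lost without control replicate 1 (0.095), 2 (0.116) or 3 (0.0717), shGATA2a replicate 1 (0.0633) or shGATA2b replicate 3 (0.0608). That of shGATA2b was lost without control replicate 1 (0.0648), 2 (0.0702) or 3 (0.05) or its own replicate 1 (0.0509) or 3 (0.0756). The fit with replicate number as a block called both hairpins together (adjusted p = 3.96e-05), shGATA2a (0.00526) and shGATA2b (1.07e-05). In DU145-DR NOTCH3 differed by 0.09 (adjusted p = 0.679) and in 22Rv1-DR by -0.37 (adjusted p = 0.56), neither of which passed the test, and the latter was -0.10 without control replicate 3 (adjusted p = 0.902).

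NOTCH1 in ARCaPM-DR read 1446, 1881 and 1252 in the controls, 707, 1355 and 645 with shGATA2a, and 869, 1227 and 698 with shGATA2b. Replicate 2 was the highest of each arm, and its shGATA2a library was the one that overlapped the controls. The difference of -0.78 log2 units (SE 0.26) missed the threshold (adjusted p = 0.0637). It passed with DESeq2 (adjusted p = 0.0334), in the fit of 27 libraries (0.0131), and without replicate 2 of shGATA2a (0.00625) or of shGATA2b (0.0394). The fit with replicate number as a block also called it (adjusted p = 4.06e-06). In 22Rv1-DR all 6 hairpin libraries (659 to 762, median 721) lay below the 3 controls (796, 866 and 942), a difference of -0.28 that was not called (adjusted p = 0.499, unadjusted p = 0.0534). In DU145-DR the groups overlapped (-0.23, adjusted p = 0.425), and with replicate number as a block shGATA2a alone was called (-0.34, adjusted p = 0.0353). NOTCH2 was called in no line, with a log2 difference of -0.10 (SE 0.10) in DU145-DR, -0.14 (SE 0.12) in ARCaPM-DR and -0.12 (SE 0.22) in 22Rv1-DR.

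HEY1 was the one member among the Notch targets that was called, and in DU145-DR. Its values were 144, 106 and 76.1 in the controls, 60.4, 70.5 and 62.4 with shGATA2a, and 56.7, 72.4 and 81.1 with shGATA2b. The controls were widely spread, and control replicate 3 lay below shGATA2b replicate 3. The change was -0.65 log2 units (SE 0.19, adjusted p = 0.0376), with -0.70 for shGATA2a (adjusted p = 0.0496) and -0.60 for shGATA2b, not called (adjusted p = 0.135) unless replicate number was a block (0.0205). With that block the joint change had an adjusted p of 0.00272, and the refits that follow had no block. Without control replicate 1, the highest library, it was -0.42 (adjusted p = 0.215). The call was also lost without control replicate 2 (0.125), shGATA2a replicate 1 (0.0691), 2 (0.051) or 3 (0.0579) or shGATA2b replicate 1 (0.0696), with no filter on low values (0.0599), and in the fit of 27 libraries (0.423). The call of shGATA2a alone was lost without 7 of the 9 libraries, all but control replicate 3 and shGATA2b replicate 1 (adjusted p 0.053 to 0.204).

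HEY1 in the 22Rv1-DR libraries followed the replicate number. It read 37.8, 70.4 and 107 in the controls, 45.3, 63.7 and 124 with shGATA2a, and 47.5, 53.2 and 124 with shGATA2b. Replicate 3 was the highest and replicate 1 the lowest of every arm, and the difference between arms was 0.08 (SE 0.41, adjusted p = 0.957). What the numbers mark is not given in the labels. In ARCaPM-DR HEY1 was low (9.64 to 27.8 in the controls and 12.5 to 38.9 with the hairpins) and not called (0.46, adjusted p = 0.457). HES1 was called in no line. Its log2 difference was 0.06 in DU145-DR (adjusted p = 0.859), -0.36 in ARCaPM-DR (0.379) and 0.05 in 22Rv1-DR (0.927). In ARCaPM-DR its 6 hairpin libraries (16.3 to 35.2) all lay below the controls (36.5 to 44.7), and the lowest, shGATA2b replicate 2, held 16.3 against 33.5 to 35.2 in the other 5.

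PTCH1, the Hedgehog receptor and target, read 529, 543 and 579 in the DU145-DR controls, 400.0, 426 and 415 with shGATA2a, and 386, 512 and 435 with shGATA2b. All hairpin libraries lay below all controls, with shGATA2b replicate 2 the nearest. The change was -0.36 log2 units (SE 0.10, adjusted p = 0.0265), with -0.41 for shGATA2a (adjusted p = 0.0301) and -0.32 for shGATA2b, not called (adjusted p = 0.123) unless replicate number was a block (0.0129). With that block the joint change had an adjusted p of 0.000899, and the refits that follow had no block. The joint call was lost without control replicate 1 (0.0773), 2 (0.091) or 3 (0.0672) or shGATA2a replicate 1 (0.0519), and in the fit of 27 libraries (0.0508). The call of shGATA2a was lost without any 1 control or any 1 of its own libraries (adjusted p 0.0632 to 0.0936). In 22Rv1-DR (0.06, SE 0.14, adjusted p = 0.897) and ARCaPM-DR (-0.12, SE 0.10, adjusted p = 0.449) it was not called.

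GLI1 in ARCaPM-DR read 75.4, 102 and 152 in the controls, 199.9, 210.0 and 198 with shGATA2a, and 244, 263 and 180.2 with shGATA2b. All 6 hairpin libraries lay above the controls, and control replicate 3 was nearest to them. The change was 1.02 log2 units (SE 0.22, adjusted p = 0.0101), and both hairpins were called alone, shGATA2a at 0.94 (adjusted p = 0.0344) and shGATA2b at 1.10 (adjusted p = 0.0169). Without control replicate 1 the change was 0.78 (adjusted p = 0.0519), and it was called without any other single library. Alone, shGATA2a lost its call without control replicate 1 (0.116) or 2 (0.0863), its own replicate 1 (0.111) or 3 (0.0722) or shGATA2b replicate 1 (0.0612), and shGATA2b without control replicate 1 (0.0602) or its own replicate 1 (0.0733) or 2 (0.0532). ARHGAP9 overlaps GLI1 on the other strand and held at most 2 reads in any ARCaPM-DR library. GLI1 differed by 0.21 in DU145-DR (SE 0.23, adjusted p = 0.554) and by 0.47 in 22Rv1-DR (SE 0.31, adjusted p = 0.587), neither of which was called.

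GLI2 gave the opposite sign to GLI1 in both lines where it was tested, and was called in neither without replicate number as a block. In ARCaPM-DR it read 947, 1269 and 967 in the controls, 683, 961 and 494 with shGATA2a, and 787, 861 and 581 with shGATA2b. The difference was -0.57 log2 units (SE 0.21, adjusted p = 0.0904), and it passed without shGATA2a replicate 2 (adjusted p = 0.0168), the one library that overlapped the controls. It also passed with replicate number as a block (adjusted p = 0.000235). In DU145-DR the values were 235, 200.3 and 275, then 165, 141 and 160.3, then 123, 203 and 226 in the same order. All shGATA2a libraries lay below the controls and those of shGATA2b overlapped them. The difference of -0.50 (SE 0.18) missed the threshold (adjusted p = 0.0722). It passed when replicate number was a block in the model (adjusted p = 0.00315 for the blocked fit, with 0.00236 for shGATA2a alone and 0.0454 for shGATA2b alone), with DESeq2 (0.0388), and without shGATA2b replicate 3 (0.0414). In 22Rv1-DR the 9 libraries held 2.50 to 7.21, too little for a test.

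**Figure D3:**
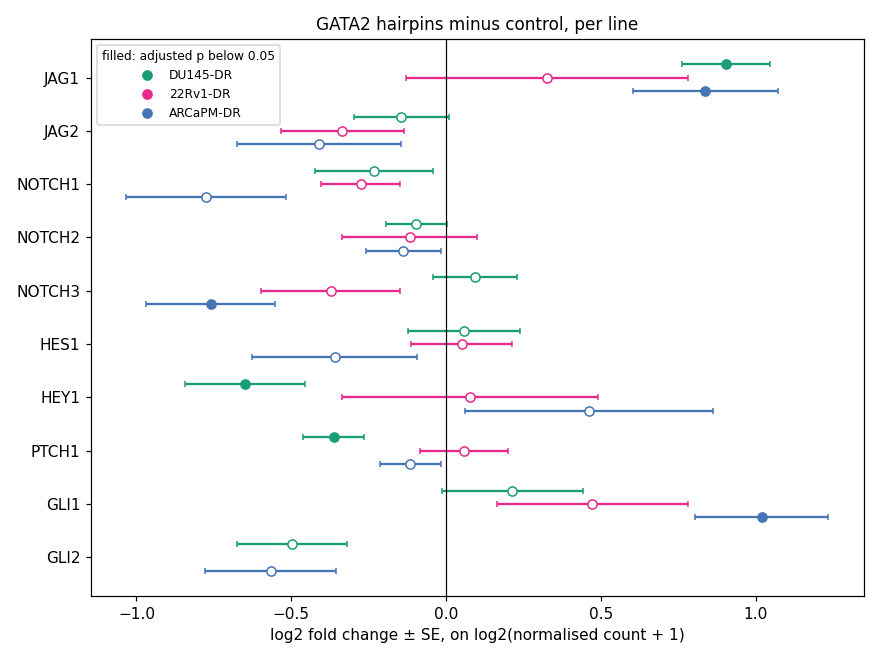
Change of each gene with the GATA2 hairpins against the control hairpin, in log2 units on the horizontal axis with SE bars, for the 3 lines fitted separately; filled points have an adjusted p below 0.05. The filled points are JAG1 in DU145-DR and ARCaPM-DR (0.90 and 0.84) and GLI1 in ARCaPM-DR (1.02) to the right of 0, and HEY1 and PTCH1 in DU145-DR (-0.65 and -0.36) and NOTCH3 in ARCaPM-DR (-0.76) to the left; GLI2 has no point in 22Rv1-DR.

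Whether the hairpins or the lines differed from each other was tested directly. Between shGATA2b and shGATA2a, 0 members were called in each line with limma, edgeR or DESeq2, where the share of all genes called was 0.00% in DU145-DR and in 22Rv1-DR and 0.803% in ARCaPM-DR. At an unadjusted p under 0.05 there was 1 member in DU145-DR (JAG1), 1 in ARCaPM-DR (NOTCH2) and 0 in 22Rv1-DR. A moderated F test of equal knockdown effects in the 3 lines called 0 of the 10 members against 7.00% of all genes, and edgeR and DESeq2 also called 0. NOTCH3 (unadjusted p = 0.0296, adjusted p = 0.172) and PTCH1 (0.0321 and 0.18) were the 2 members under 0.05 before adjustment. For NOTCH3 the effect in ARCaPM-DR was below that in DU145-DR (a log2 difference of -0.85, SE 0.30, adjusted p = 0.0883). Between pairs of lines 0 members were called with limma, where 1.09% (22Rv1-DR against DU145-DR), 7.13% (ARCaPM-DR against DU145-DR) and 3.39% (ARCaPM-DR against 22Rv1-DR) of all genes were, and 1, 2 and 0 members were under an unadjusted p of 0.05. These results depend on the model. With replicate number as a block, the F test called 4 members, NOTCH3 (adjusted p = 0.0184), HEY1 (0.0321), PTCH1 (0.0393) and JAG1 (0.0423). The blocked fit also called PTCH1 between 22Rv1-DR and DU145-DR (0.42, adjusted p = 0.0334), and HEY1 (1.11, 0.0161), NOTCH3 (-0.85, 0.00803) and NOTCH1 (-0.54, 0.0406) between ARCaPM-DR and DU145-DR. Between the hairpins in ARCaPM-DR it called JAG1 (0.58, adjusted p = 0.000825), NOTCH3 (-0.49, 0.0212) and NOTCH2 (-0.33, 0.046). Whether replicate numbers pair all libraries of ARCaPM-DR depended on the gene filter. At the main filter the correlation between same-numbered libraries there had a median of 0.58 and a lowest value of 0.06. Calls of members between lines were thus made in the blocked fit alone. The share of all genes called by the blocked tests between lines and between hairpins is not given here. These counts of members therefore cannot be set beside a background share.

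A list of 79 other genes of both pathways was followed in the same fits. In DU145-DR 66 were tested, of which 7 rose and 8 fell, or 15 of 66 where 16.7% of all genes were called. In ARCaPM-DR 67 were tested, of which 3 rose and 5 fell, against 18.5% of all genes. In 22Rv1-DR 67 were tested and limma called 0 of them, with 7 at an unadjusted p under 0.05, and edgeR and DESeq2 also called 0. The median change of the listed genes was -0.07, -0.14 and 0.02 log2 units in DU145-DR, ARCaPM-DR and 22Rv1-DR, beside medians of all genes between -0.02 and 0.00.

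In DU145-DR, the nuclear complex of Notch moved in both directions. RBPJ, its DNA-binding subunit, rose by 0.52 log2 units (SE 0.11, adjusted p = 0.00718), while the coactivator MAML1 changed by -0.82 (SE 0.11, adjusted p = 0.000945). FURIN, the protease that cleaves the Notch precursor, fell from 1487 ± 260 in the controls to 678 ± 14.9 with shGATA2a and 720.4 ± 60.1 with shGATA2b (-1.07, SE 0.11, adjusted p = 0.000175), and ADAM17, a protease of the receptor's outer part, rose by 0.37 (adjusted p = 0.0118). MIB1, the ubiquitin ligase that activates Notch ligands, rose by 0.39 (adjusted p = 0.0161). On the Hedgehog side SUFU, an inhibitor of the GLI proteins, fell from 479 ± 43.8 to 328 ± 11.4 with shGATA2a and 316 ± 6.94 with shGATA2b (-0.57, SE 0.09, adjusted p = 0.00214). HHAT, which attaches palmitate to Hedgehog ligands, rose by 0.71 (adjusted p = 0.0118), and further calls, named after their values were seen, were the rises of DLL1, BOC and GPR161 and the falls of HES6, HEYL, DTX3 and ADRBK1. Without control replicate 2 the calls of RBPJ (0.0533), ADAM17 (0.0859), HHAT (0.0768) and MIB1 (0.0767) were lost, as was that of MIB1 without control replicate 1 (0.0734). The fit of 27 libraries ended those of RBPJ (0.17), ADAM17 (0.317), HHAT (0.248), MIB1 (0.272) and SUFU (0.0746), and kept those of FURIN and MAML1.

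In ARCaPM-DR, ITCH, a ubiquitin ligase that acts on Notch receptors, fell from 1930.3 ± 350.5 to 968 ± 21.5 with shGATA2a and 1017 ± 80.6 with shGATA2b (-0.95, SE 0.12, adjusted p = 0.000731). NUMB, an inhibitor of Notch receptors, changed by -0.43 (adjusted p = 0.0131), the acetyltransferase KAT2B by -0.61 (adjusted p = 0.0103), and DTX4, named after its value was seen, also fell. SNW1, a cofactor of the Notch complex, rose by 0.45 (adjusted p = 0.00997) and MIB1 by 0.43 (adjusted p = 0.0319). SHH, the Hedgehog ligand, averaged 107 ± 34.3 in the controls, 61.8 ± 8.70 with shGATA2a and 42.8 ± 11.2 with shGATA2b, a change of -1.02 log2 units (SE 0.24, adjusted p = 0.0181), and BTRC, a ubiquitin ligase subunit that acts on GLI proteins, rose by 0.56 (adjusted p = 0.00469). Single libraries ended the calls of SHH (without control replicate 3, 0.0916), SNW1 (control replicate 1, 0.0552), KAT2B (control replicate 3, 0.0584) and NUMB (control replicate 2, 0.0573, or 3, 0.0527). MIB1 lost its call without control replicate 1 (0.108) or 3 (0.133), shGATA2a replicate 1 (0.073) or shGATA2b replicate 1 (0.0569), 2 (0.0552) or 3 (0.0646), and in the fit of 27 libraries (0.106). SMO (-0.39, adjusted p = 0.0933), GLI3 (0.17, adjusted p = 0.831), RBPJ (0.11, adjusted p = 0.718), SUFU (-0.14, adjusted p = 0.725) and NRARP (-0.17, adjusted p = 0.539) were not called in this line. In DU145-DR SMO (-0.21, adjusted p = 0.361), GLI3 (-0.38, adjusted p = 0.0969) and NRARP (-0.32, adjusted p = 0.326) were not called either.

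**Figure D4:**
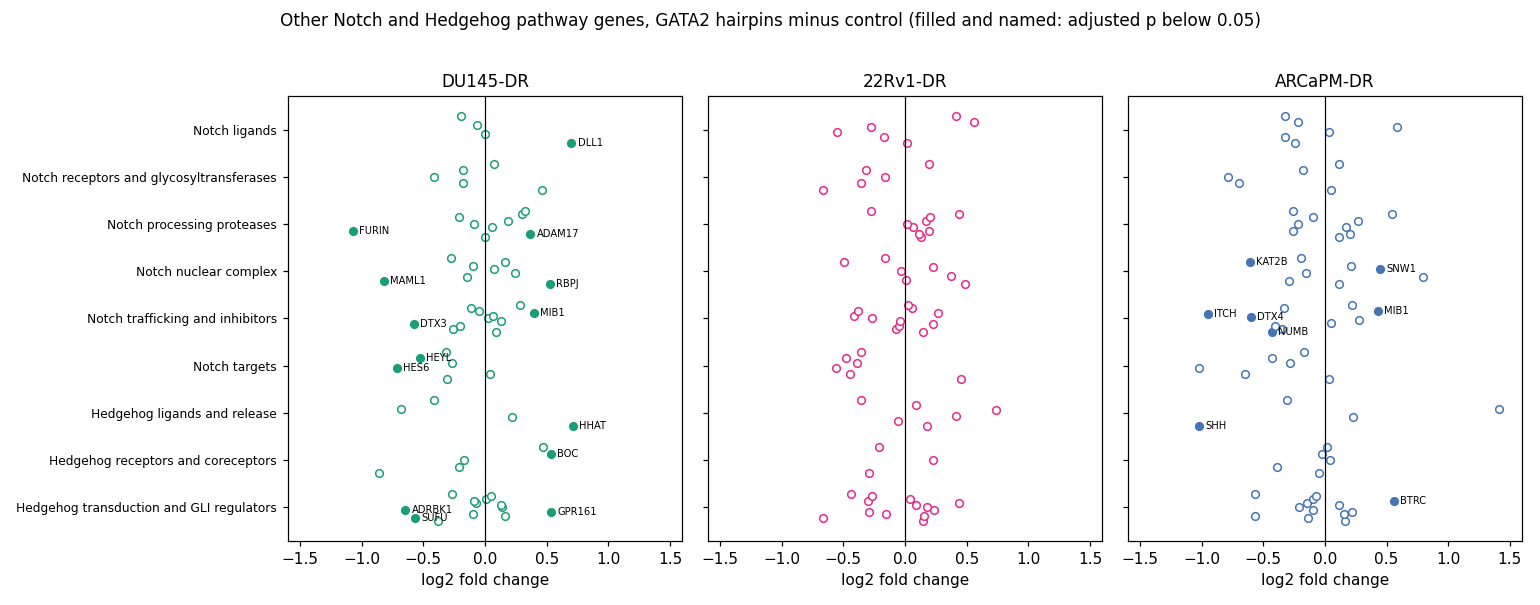
Change with the GATA2 hairpins, in log2 units on the horizontal axis, of the other Notch and Hedgehog pathway genes by list (vertical axis) in the 3 lines; each point is a listed gene that passed the filter and is reported, and filled, named points have an adjusted p below 0.05. DU145-DR has filled points from FURIN (-1.07) to HHAT (0.71), ARCaPM-DR has 8 from SHH (-1.02) to BTRC (0.56), and 22Rv1-DR has 0.

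Finally, the members were compared with each other and with all genes over the 27 libraries after the mean of each line was removed. These correlations are descriptions. The points share line, hairpin and replicate number, so no p is given. Among members NOTCH1 moved most with JAG2 (Pearson r = 0.84) and GLI2 (0.76), NOTCH3 with JAG2 (0.77) and NOTCH1 with NOTCH3 (0.73), while NOTCH1 and JAG1 had an r of -0.45. Of 12121 genes searched, those most like NOTCH1 were RHBDF2 (0.93) and STK10 (0.915). NOTCH3 was most like DIP2A (0.916) and NPHP4 (0.891), NOTCH2 was close to MYCBP2 (0.862), and JAG2 most like MAP2K3 and LRWD1 (0.912 each). JAG1 was nearest to RHOB (0.826) and PRDM8 (0.809), and HEY1 to SAT1 (0.809) and AHR (0.789). GLI2 was nearest to ZYX (0.815) and SCARB1 (0.804), PTCH1 to TPCN1 (0.815) and MAP4 (0.813), and GLI1 to FAM189A1 (0.796) and A2LD1 (0.762). HES1 had the weakest nearest genes, KLF9 (0.632) and KLF4 (0.628).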

How the data were processed

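The deposited table gives 1 signal value per gene and library, a read count that the authors divided by 1 scale factor per library. This was read from the values: 99.954% of the 433407 values above 0 are whole multiples of the library's step within 0.005 reads, and none of the 10 genes has an exception, whereas GATA2 does. The aligner TopHat2 2.0.9, Cufflinks 1.3.0 and the build hg19 are named, with no order of steps, per the submitters' processing notes. Counting tool, scaling tool, strand setting and the handling of reads shared by gene copies: not given in the sources used here.

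Each line was fitted alone with limma 3.58.1 (R 4.3.3) on log2 of the value plus a pseudocount of 1, which understates changes of low genes, with a mean-variance trend. Genes needed a value of 10 in 3 libraries. P-values were adjusted by Benjamini-Hochberg over all genes tested, with a threshold of 0.05. The knockdown effect is the average of the shGATA2a and shGATA2b means less the control mean. Control groups and differences between lines were tested in 1 fit of 27 libraries. edgeR 4.0.16 and DESeq2 1.42.0 were run on recovered reads as alternatives, and the scripts were tested on simulated data. Correlations and figures used Python 3.11.15. Genes were named by a rule: all 10 genes, SMO, SUFU, GLI3, RBPJ and NRARP, and up to 4 listed pathway genes per line and direction with the smallest adjusted p. Some results that the rule names are not reported here. The genes, lists and tests were chosen with earlier results of these data known.

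Same-numbered libraries deviated together in DU145-DR (lowest correlation 0.28 over 9 pairs) and in 22Rv1-DR (lowest 0.21), so the numbers were taken to pair the libraries there, although the labels do not say what they mark. The fits did not use this pairing except where a block is named. The calls in the figures and all refits without a library come from fits without the block. With the replicate block, genes called went from 2231 to 5184 in DU145-DR and from 55 to 166 in 22Rv1-DR.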

Additional observations from a re-analysis of the deposited data

Results flagged for a closer look

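None of the 10 genes had a knockdown effect that differed between lines past the threshold without the replicate block. Of the 74 other pathway genes in the fit of 27 libraries, 5 did, where 7.00% of all genes were called. The 5 of 74 are near that share, and 10 genes are too few to tell their lack of calls from it. The counts thus show no contrast between the 10 genes and the other pathway genes. FURIN differed between lines (limma F test, adjusted p = 0.000152), with an effect 1.27 log2 units higher in 22Rv1-DR and 0.82 higher in ARCaPM-DR than in DU145-DR. MAML1 differed likewise (adjusted p = 0.00494), by 0.83 in 22Rv1-DR and 0.53 in ARCaPM-DR. In ARCaPM-DR it was not called, though all 6 hairpin libraries (1201 to 1621) also lay below the 3 controls (1693 to 1925). The effect on ITCH was lower in ARCaPM-DR than in DU145-DR (-1.01, F test adjusted p = 0.00787), as was that on KAT2B (-0.77, F test adjusted p = 0.0152). KAT2B was not called in 22Rv1-DR, though all 6 hairpin libraries there also lay below the 3 controls. The effect on BTRC was higher in ARCaPM-DR than in DU145-DR (0.65, F test adjusted p = 0.0143). The lines' effects rest on 3 control and 6 hairpin libraries each.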

How the results depend on the processing

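Settings other than leaving out a library reversed no direction among the 76 gene results recomputed, although the median of the 10 genes in 22Rv1-DR turned from 0.05 to -0.03 with no filter and -0.12 with a filter of 50. The settings were a pseudocount of 0.1, no filter, a filter of 50, quantile or median-of-ratios scaling, the replicate block, edgeR, DESeq2, leaving out genes with values that are not whole, 1 fit of 27 libraries and, for the control comparisons, control libraries alone. In 1 fit of 27 libraries, 0 of the 10 genes were called in DU145-DR, with 650 of all genes there and 224 in 22Rv1-DR. In 22Rv1-DR, DESeq2 called 185 genes, and limma called 1 in place of 55 when genes with values that are not whole were left out.

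With the replicate block, genes called went from 2231 to 5184 in DU145-DR, from 55 to 166 in 22Rv1-DR and from 2418 to 5885 in ARCaPM-DR. Beside these totals the block added GLI2 in DU145-DR (adjusted p = 0.00315) and, for single hairpins there, added 2 calls with shGATA2a (GLI2 and NOTCH1) and 3 with shGATA2b (GLI2, HEY1 and PTCH1). It added HEY1 between the controls of 22Rv1-DR and DU145-DR and PTCH1 between their effects, and ended no call of the 10 genes. Of the 10 genes, the blocked fit called 4 between lines (HEY1, JAG1, NOTCH3 and PTCH1), 6 for knockdown in ARCaPM-DR and 3 between its hairpins (JAG1, NOTCH2 and NOTCH3). Shares of all genes are not given here for the blocked tests between lines, between hairpins or of single hairpins. In ARCaPM-DR the block added NOTCH1 (adjusted p = 4.06e-06), GLI2 (0.000235) and JAG2 (0.00445), with 5 calls for shGATA2a and 4 for shGATA2b. It added NOTCH2 (0.0139) and NOTCH3 (0.0212) between the controls of ARCaPM-DR and DU145-DR. In ARCaPM-DR the lowest same-number correlation was 0.06 and the median 0.58, beside medians of 0.39 in DU145-DR and 0.41 in 22Rv1-DR. Of its 9 libraries, 7 were most like one of their own number. With filters of 50 and 200, added after values were seen, the lowest was 0.13 and 0.16 and the median 0.68 and 0.71. The libraries most like one of their own number were then 8 and 9 of 9. With no filter the lowest was -0.01 and the median 0.32, and 7 of 9 libraries were most like one of their own number. Whether numbers pair all libraries there thus depends on the filter.

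Leaving out 1 library gave 1 to 4 of the 10 genes called in DU145-DR, 0 to 0 in 22Rv1-DR and 0 to 5 in ARCaPM-DR, and 857 to 2440, 0 to 37 and 1179 to 3545 of all genes. For controls it gave 6 to 8 (22Rv1-DR against DU145-DR), 8 to 8 (ARCaPM-DR against DU145-DR) and 8 to 9 (ARCaPM-DR against 22Rv1-DR), and between hairpins and between lines 0 to 0. It reversed 10 values, none of them called. HES1 in DU145-DR ranged from -0.0059 (without control replicate 3) to 0.16. In 22Rv1-DR the ranges were -0.33 to 0.13 for NOTCH2 (above 0 without control replicate 3), -0.14 to 0.63 for JAG1 (below 0 without control replicate 1), and -0.023 to 0.16 for PTCH1 (below 0 without control replicate 3). HES1 there ranged from -0.057 to 0.14, below 0 without replicate 3 of any arm, and HEY1 from -0.31 to 0.42, below 0 without control replicate 1 or replicate 3 of either GATA2 hairpin. The cause was not tested. Low counts limit GLI2 in 22Rv1-DR, with as few as 3 reads in a library.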
